A study of Mus musculus with 16 samples.

Results

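The genes described are 7 cation channels of sensory signalling: Trpa1, Trpm2, Trpm4, Trpm7 and Trpc1 of the transient receptor potential (TRP) family, and the mechanically gated channels Piezo1 and Piezo2. They were taken by symbol from the deposited expression table, and all 7 had a row among its 20072 genes. The values came from 16 RNA sequencing libraries of sorted small intestinal epithelium of untreated Tph1-CFP mice aged 8 to 16 weeks. This reporter line carries cyan fluorescent protein (CFP) in cells that express Tph1, the enzyme of serotonin synthesis in enterochromaffin (EC) cells. Crypt and villus fractions of the whole small intestine were sorted separately into CFP-positive EC cells and CFP-negative epithelial cells (epi, a mixture of all remaining epithelial types). The 4 groups were the EC and epi sorts of each site, with 4 libraries of 5000 pooled cells per group, and the reporter was carried by all of them. The labels do not say which libraries came from the same mouse, so p-values measure the spread between these samples.

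TRP channels are tetrameric cation channels of the plasma membrane and of vesicles, and their opening depolarises the cell or lets calcium in. Piezo proteins are large trimeric channels that open when the membrane is stretched. EC cells are the main source of serotonin in the gut, and channels that admit calcium can trigger its release onto nearby nerve endings. Trpa1 responds to electrophilic irritants, Trpm2 to ADP-ribose together with calcium, and Trpm4 to intracellular calcium. Trpm7 joins a magnesium-permeable pore to a kinase domain, and Trpc1 is a subunit of channels activated downstream of phospholipase C or of emptied calcium stores.

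The largest differences lay in Trpa1 and Trpm2, which were high in EC cells of both sites and near the bottom of the range in epi. Their site preference was opposite: Trpa1 was higher in crypt EC and Trpm2 in villus EC. Trpm4 had the reverse cell-type pattern and was higher in epi at both sites. Piezo1 was low throughout and lower in the villus than in the crypt in both cell types. Trpm7, Trpc1 and Piezo2 passed no main test, which was 1 unweighted fit of all libraries or, for Piezo2, exact permutation. In that permutation test, full separation of the groups in a single comparison could not pass after adjustment. Each of these genes passed at least 1 test under another setting given with it.

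**Figure D1:**
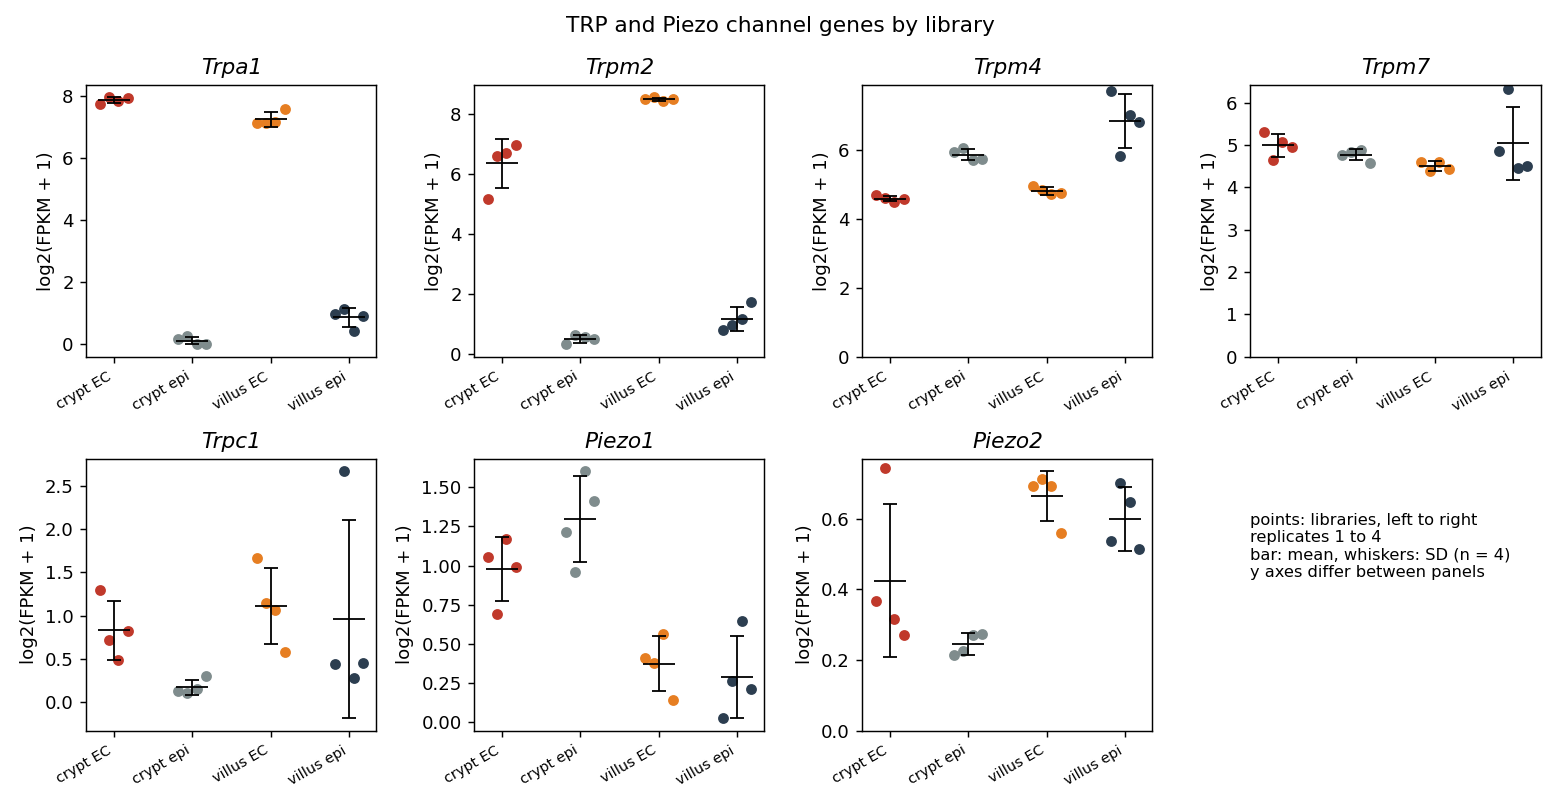
Each panel plots 1 channel gene, with log2(FPKM + 1) on a y axis that differs between panels and the 4 groups on the x axis. Points are libraries in the order of replicates 1 to 4, the long bar is the mean and the whiskers are the SD (n = 4). Trpa1 and Trpm2 separate EC from epi without overlap, Trpm4 separates them in the other direction, and 1 villus epi library lies far above its group for Trpm7 and Trpc1.

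Values are FPKM (fragment counts per kilobase, relative to library size, by the name the depositors gave), so levels of different genes are comparable per length. Column totals ran from 731415 to 1415120. Differences are on the log2(FPKM + 1) scale, which understates changes of genes near or below 1, and a gene is called at a limma adjusted p below 0.05. Relative read depth was read from the steps between low values, each taken as worth 1 read and with scaling by read totals alone assumed. It lay between 0.362 and 1.02 of that of crypt EC replicate 1, and the lowest was villus epi replicate 2. That library also stood apart in expression, with a mean correlation across genes of 0.812 to its group where the other villus epi libraries had 0.923 to 0.926. Its mitochondrial share was 5.26% against 10.9% to 14.9%. Its summed T cell and lymphocyte markers were 29.1 FPKM against 2.41 to 8.79, and its summed stromal and endothelial markers 32.7 against 5.39 to 7.95. Ptprc at 24.6 made most of the lymphocyte sum and Pecam1 at 23.1 most of the stromal sum. No other lymphocyte marker exceeded 2.98 FPKM in villus epi (Gzma), and no other stromal or endothelial marker exceeded 2.27 (Col1a2). The sorts were checked with 10 EC markers, which summed to 87631 to 109690 FPKM in crypt EC and 84817 to 124764 in villus EC, whereas the crypt and villus epi sorts had 1437 to 1978 and 622 to 753. One of the 10, the vesicular monoamine transporter gene Slc18a2, overlapped between the villus sorts, at 4.65 to 9.80 FPKM in EC and 1.67 to 21.1 in epi.

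Trpa1 (ENSMUSG00000032769, mm10 chr1:14872648-14918862, minus strand) encodes the irritant receptor that is best known from sensory neurons. Crypt EC libraries had 213, 248, 227 and 243 FPKM. Crypt epi libraries had 0.0999 and 0.193 in replicates 1 and 2 and were listed at 0 in replicates 3 and 4. Villus EC had 138, 138, 141 and 193. Villus epi had 0.955, 1.16, 0.321 and 0.877. Levels thus descended from crypt EC through villus EC and villus epi to crypt epi, and no neighbours in that order overlapped. With 4 libraries a group, the crypt EC mean of 233 ± 15.9 (SD) was higher than that of 96.7% of tested genes.

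In the crypt, Trpa1 was higher in EC than in epi by 7.77 ± 0.16 log2 units (SE, limma adjusted p = 2.201e-14). Its difference in the villus was 6.40 (95% interval 6.05 to 6.75, limma adjusted p = 2.831e-13). Between sites it fell by 0.62 log2 units from crypt to villus within EC cells (limma adjusted p = 0.01071), and the mean went from 233 ± 15.9 to 153 ± 26.9 FPKM. Within epi it rose from crypt to villus by 0.75 (limma adjusted p = 0.001103), at levels of 0.0732 ± 0.0926 and 0.83 ± 0.360 FPKM. The gap between EC and epi was thus narrower in the villus by 1.37 log2 units (interaction, 95% interval 0.87 to 1.86, limma adjusted p = 0.0002195). In such pooled libraries, fewer expressing cells and less RNA per expressing cell cannot be told apart.

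The small Trpa1 signal in epi was set beside the EC markers in those sorts. As a share of the EC level, Trpa1 in epi was 0.0315% in the crypt and 0.543% in the villus. The medians of the 10 EC markers were 0.482% and 0.838%, and Tph1 went from 0.0291% to 0.329%. Other values went the other way: Reg4 went from 3.67% to 0.223% and Trpm2 from 0.480% to 0.371%. The EC marker sum in epi was also lower in the villus (622 to 753 FPKM) than in the crypt (1437 to 1978). Reg4 made most of that crypt sum, with means of 1643 FPKM in crypt epi and 99.8 in villus epi. Of the 10 EC markers, only Reg4 had a lower share in the villus than in the crypt. Their part in the epi site difference and in the interaction was not tested. The rise in epi was 2.47 with a pseudocount of 0.1 (limma adjusted p = 3.517e-05) and 0.20 and not called with a pseudocount of 5 (limma adjusted p = 0.1403), and the fall in EC was not called with a pseudocount of 0.1 (−0.62, limma adjusted p = 0.2726).

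Trpm2 (ENSMUSG00000009292, mm10 chr10:77907722-77970563, minus strand) encodes a calcium-permeable channel opened by ADP-ribose, which accumulates under oxidative stress. Crypt EC libraries had 34.5, 95.9, 102 and 124 FPKM. Villus EC libraries had 356, 374, 343 and 357. Crypt epi had 0.251, 0.537, 0.495 and 0.426, and villus epi had 0.738, 0.973, 1.25 and 2.35. Every villus EC library lay far above every crypt EC library, and both EC groups lay above both epi groups. The order was villus EC, crypt EC, villus epi and crypt epi, with no overlap between neighbours. The villus EC mean of 358 ± 12.8 (SD, n = 4) exceeded that of 98.0% of tested genes.

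Compared with epi, Trpm2 was higher in EC by 5.84 ± 0.31 log2 units in the crypt (SE, limma adjusted p = 6.271e-10) and by 7.31 in the villus (limma adjusted p = 2.53e-11). From crypt to villus it rose within EC by 2.14 (95% interval 1.48 to 2.79, limma adjusted p = 8.945e-05), a 4.40-fold change. Markers of other epithelial cells differed between the EC sorts as well. From crypt EC to villus EC the summed hormone genes of other endocrine cells went from 299.8 to 562.8 FPKM up to 1025 to 4106. Most of that rise was Pyy (means of 23.8 in crypt EC and 1313 in villus EC) and Cck (72.1 and 731). Of these hormone genes only Ghrl had a lower mean in villus EC (216 and 93.0). Goblet markers went from 2402 to 3647 up to 10568 to 14647. Of the goblet markers, Tff3, Agr2 and Fcgbp had higher means in villus EC (Tff3 1517 in crypt EC and 6905 in villus EC). Muc2, Clca1, Zg16 and Spink4 had lower means there (Spink4 464 in crypt EC and 12.6 in villus EC). Paneth markers went from 5874 to 8941 down to 51.8 to 95.1, and stem and cycling markers from 833 to 1398 down to 3.80 to 5.18. Their part in the site differences of Trpm2 and Trpa1 in EC was not tested. Within epi the site difference was 0.66 and missed the threshold (limma adjusted p = 0.08103), although the groups did not overlap. The gap between EC and epi was wider in the villus by 1.47 (limma adjusted p = 0.01299). That widening was 0.80 and not called with a pseudocount of 0.1 (limma adjusted p = 0.2557).

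Crypt EC replicate 1, the library lowest in Trpm2 within its group, also had the lowest EC marker sum of that group (87631 FPKM against 105452 to 109690). Its summed hormone genes of other endocrine cells were 563 FPKM against 299.8 to 360.2, and its stem and cycling sum was 1398 against 833 to 913. Its stromal and endothelial sum was 36.6 against 20.8 to 21.4, and Pecam1 at 33.0 made most of it. The goblet, Paneth and absorptive enterocyte sums of that library were the lowest of its group. Without that library Trpm2 still rose from crypt EC to villus EC, by 1.74 (limma adjusted p = 1.664e-05), and the epi site difference of 0.66 was called (limma adjusted p = 0.006245).

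Trpa1 and Trpm2 together show the crossed site pattern best within single libraries, where scaling cancels. Trpa1 was 6.17, 2.58, 2.23 and 1.96 times the level of Trpm2 in the crypt EC libraries. In villus EC the ratio was 0.388, 0.369, 0.413 and 0.541. Every crypt EC library thus had more Trpa1 than Trpm2 and every villus EC library had less.

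**Figure D2:**
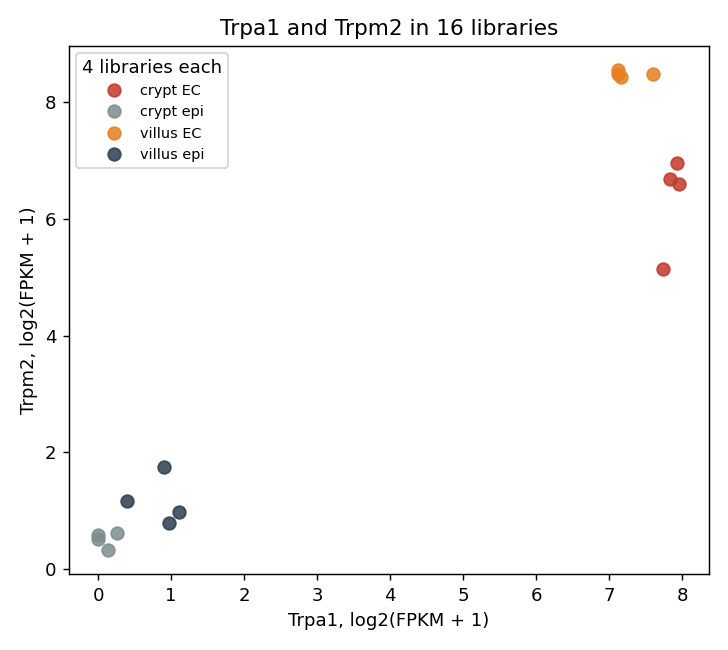
Each point is 1 of the 16 libraries, with Trpa1 on the x axis and Trpm2 on the y axis, both as log2(FPKM + 1), coloured by group (4 libraries each). The 4 crypt EC and 4 villus EC libraries form separate clusters at the upper right, with crypt EC to the right and villus EC on top, and the 8 epi libraries lie at the lower left.

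Trpa1 and Trpm2 are also known from sensory neurons and immune cells, so markers of such cells were set beside them. The 8 measured markers of neurons and glia summed to 22.5 to 26.0 FPKM in crypt EC and 70.6 to 94.1 in villus EC. Epi sums were 1.57 to 2.15 in the crypt and 3.07 to 9.29 in the villus. Most of the sum was Ret (14.4 FPKM in crypt EC and 74.1 in villus EC), followed by Tubb3 (5.09 and 7.39). The neuronal RNA-binding protein gene Elavl4 was at 1.86 and 1.11 and the glial gene Gfap at 0.433 and 0.524. The part of these cells in the Trpa1 and Trpm2 values was not tested. Stromal and endothelial markers summed to 20.8 to 36.6 in crypt EC and 16.1 to 25.5 in villus EC against 4.21 to 5.07 in crypt epi. Pecam1 made most of it in EC (20.9 in the crypt and 16.7 in the villus), followed by Col1a2 (1.07 and 0.738) and Lyve1 (1.03 and 0.620). The endothelial gene Cdh5 was at 0.0501 and 0.114. The 9 myeloid markers summed to less in EC (12.9 to 26.0 in the crypt and 9.94 to 24.8 in the villus) than in epi (33.2 to 37.5 and 46.2 to 90.8). The 3 measured mast cell markers summed to 26.4 to 38.8 in crypt EC and 39.3 to 46.3 in crypt epi, and to 6.86 to 10.3 in villus EC and 1.14 to 2.78 in villus epi. Most of these sums was Kit, with means of 31.0 and 42.2 FPKM in crypt EC and epi and 8.00 and 1.74 in villus EC and epi. The tryptase gene Tpsb2 was listed at 0 in every crypt EC library. No measured neuronal and glial, stromal, myeloid or T cell marker was at 0 in a whole EC group. T cell and lymphocyte markers summed to 1.72 to 3.92 over the EC libraries and 2.41 to 29.1 over the epi libraries.

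For Trpm2 the promoter is shown because this gene had the larger site difference among the EC-high channels. That of Trpm7 is shown as a gene with no called difference between cell types in the main fit. Trpc1 and Piezo1 also had a window and no such call, and theirs are not shown. Each sequence shown is the RefSeq window (GRCm38.p6) of 250 bases before to 50 bases after the start site, 5′ to 3′ on the gene's strand, at chr10:77969823-77970122 and chr2:126876212-126876511. Capitals mark a match to any of 3 motifs.
Trpm2: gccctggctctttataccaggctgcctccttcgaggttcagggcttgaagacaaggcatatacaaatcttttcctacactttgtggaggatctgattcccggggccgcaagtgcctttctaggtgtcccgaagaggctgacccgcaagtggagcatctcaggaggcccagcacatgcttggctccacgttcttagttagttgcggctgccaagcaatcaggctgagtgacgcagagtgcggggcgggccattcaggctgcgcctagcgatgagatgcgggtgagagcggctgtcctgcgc
Trpm7: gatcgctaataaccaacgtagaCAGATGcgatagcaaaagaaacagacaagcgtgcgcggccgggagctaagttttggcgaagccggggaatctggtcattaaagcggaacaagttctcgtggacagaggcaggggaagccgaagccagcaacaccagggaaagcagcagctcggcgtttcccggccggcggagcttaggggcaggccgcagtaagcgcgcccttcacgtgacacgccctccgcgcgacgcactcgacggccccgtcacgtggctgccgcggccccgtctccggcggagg

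The motifs were letter patterns bound by 3 factor classes of endocrine cells: CAGATG (basic helix-loop-helix factors such as Neurod1), TAATTA (homeodomain factors such as Lmx1a) and GGAAGT (Ets factors such as Fev). Both strands were searched, and with 1 match no overlap between motifs arose. CAGATG occurred in 17.1% of the 32544 RefSeq promoter windows, TAATTA in 5.29% and GGAAGT in 23.7%. Windows were at hand for 4 of the 7 genes (Trpm2, Trpm7, Trpc1 and Piezo1). Among these, 1 match was found, CAGATG in Trpm7 starting 228 bases before the start site. The Trpm2 window holds none of these letter patterns.

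Trpm4 (ENSMUSG00000038260, mm10 chr7:45302632-45333780, minus strand) encodes a channel that passes monovalent ions only and opens when intracellular calcium rises. It was the member highest in epi. Crypt EC had 24.8, 23.6, 21.5 and 22.9 FPKM, and villus EC had 30.3, 27.5, 25.3 and 26.1. Crypt epi had 60.5, 65.8, 52.0 and 53.0. Villus epi had 212, 55.9, 130 and 113, the lowest being replicate 2. All 8 epi libraries were above all 8 EC libraries. The order was villus epi, crypt epi, villus EC and crypt EC, and the pair of epi groups overlapped.

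Trpm4 was lower in EC than in epi by 1.28 ± 0.27 log2 units in the crypt (SE, limma adjusted p = 0.001253) and by 2.04 in the villus (limma adjusted p = 8.341e-06). It was called lower in EC at both sites under both other scalings of the libraries, with −0.75 and −1.41 when libraries were scaled to the same total. Within epi it rose from crypt to villus by 0.98 (limma adjusted p = 0.006066), from 57.8 ± 6.52 to 128 ± 64.4 FPKM (SD, n = 4). Within EC the site difference was 0.22 (95% interval −0.35 to 0.80, limma adjusted p = 0.6426), although the groups did not overlap. The interaction of −0.76 missed the threshold (limma adjusted p = 0.1255), and without villus epi replicate 2 it was −1.10 and called (limma adjusted p = 0.0004835). Tuft cells, which use the related Trpm5, had low marker sums. The 8 measured tuft markers summed to 33.7 to 74.8 FPKM in crypt epi and 16.7 to 93.2 in villus epi, against 8.48 to 11.4 and 6.21 to 16.5 in the EC groups. Absorptive enterocyte markers summed to 2792 to 8754 in crypt epi and 100094 to 144822 in villus epi, and their part in the Trpm4 difference was not tested.

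Trpm7 (ENSMUSG00000027365, mm10 chr2:126791565-126876230, minus strand) encodes the channel-kinase found in most cell types. Its values were 38.6, 24.1, 32.7 and 29.9 FPKM in crypt EC and 23.3, 19.7, 23.2 and 20.7 in villus EC. In epi they were 26.3, 27.5, 28.2 and 22.9 in the crypt and 28.2, 78.3, 20.9 and 21.8 in the villus. Apart from villus epi replicate 2 at 78.3, all libraries lay between 19.7 and 38.6. The group means ran in the order villus epi, crypt EC, crypt epi and villus EC. Neighbours in that order overlapped, and crypt EC and villus EC did not.

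No Trpm7 contrast was called. The difference of EC from epi was 0.23 in the crypt (95% interval −0.42 to 0.89) and −0.53 in the villus (−1.19 to 0.12). The villus value was −0.11 without villus epi replicate 2 (limma adjusted p = 0.5051), 0.08 with equal totals, and −0.80 and called with median-ratio scaling (limma adjusted p = 0.01861). From crypt EC to villus EC the difference was −0.49 (limma adjusted p = 0.2878). It kept that size and was called without villus epi replicate 2 (limma adjusted p = 0.006232), a library outside the contrast that enters through the shared spread.

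Trpc1 (ENSMUSG00000032839, mm10 chr9:95705082-95750375, minus strand) encodes a pore subunit that forms channels with other TRPC proteins, and it lay between 0.0740 and 2.16 FPKM in 15 of 16 libraries. Crypt EC had 1.46, 0.646, 0.402 and 0.774, and crypt epi had 0.0939, 0.0740, 0.115 and 0.231. Villus EC had 2.16, 1.21, 1.09 and 0.500, and villus epi had 0.357, 5.37, 0.211 and 0.364. Again replicate 2 of villus epi stood far above its group. The crypt groups did not overlap, and the villus groups overlapped only through that library. The crypt epi mean of 0.128 ± 0.0704 (SD, n = 4) was the lowest of the groups and overlapped villus epi, and the other 3 groups overlapped one another.

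In the fit of all libraries with 1 added, Trpc1 was called in no contrast, with differences of EC from epi of 0.66 in the crypt (limma adjusted p = 0.2237) and 0.15 in the villus (limma adjusted p = 0.766). Without villus epi replicate 2 it was higher in EC at both sites, by 0.66 in the crypt (limma adjusted p = 0.01001) and by 0.73 in the villus (limma adjusted p = 0.007341). With all libraries kept, library weights also gave calls in the crypt (0.56, limma adjusted p = 0.005395), in the villus (0.76, limma adjusted p = 0.003437) and between sites in EC (0.43, limma adjusted p = 0.04327). The crypt difference was called too when only its 2 groups were fitted (0.66, limma adjusted p = 0.007168). With a pseudocount of 0.1 it was 1.93 (limma adjusted p = 0.04754), and the site difference in epi was 1.81 (limma adjusted p = 0.04781). The elevated stromal and lymphocyte marker sums of villus epi replicate 2, given above, were mostly Pecam1 and Ptprc. Their part in the Trpc1 and Trpm7 values of that library was not tested.

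Piezo1 (ENSMUSG00000014444, mm10 chr8:122481698-122551329, minus strand) encodes the stretch-gated channel of many epithelia and vessels. Crypt EC had 1.08, 0.613, 1.25 and 0.985 FPKM, and crypt epi had 1.32, 0.942, 2.04 and 1.66. Villus EC had 0.330, 0.300, 0.476 and 0.101, and villus epi had 0.0180, 0.197, 0.566 and 0.161. In both cell types every crypt library exceeded every villus library, while EC and epi of the same site overlapped. The order of means was crypt epi, crypt EC, villus EC and villus epi.

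From crypt to villus Piezo1 fell by 0.60 log2 units in EC (limma adjusted p = 0.01729) and by 1.01 in epi (95% interval 0.64 to 1.38, limma adjusted p = 0.0001391). Piezo1 reached the filter for the fit only through crypt libraries, as every villus library was below 1 FPKM. These site calls thus concern a gene that was kept by the groups where it was higher. The EC call was lost without crypt EC replicate 3 (−0.54, limma adjusted p = 0.0549) or villus EC replicate 4 (−0.52, limma adjusted p = 0.05579). Differences of EC from epi were −0.32 in the crypt (95% interval −0.69 to 0.05) and 0.09 in the villus (−0.28 to 0.46), neither called. Exons of Piezo1 share 2441 bases with Ctu2, a transfer RNA modification gene on the opposite strand. The library kit does not mark strand, so reads of both genes cannot be told apart there, and Ctu2 had means of 16.0 and 16.3 FPKM in the crypt and 10.8 and 5.39 in the villus (EC and epi).

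Piezo2 (ENSMUSG00000041482), the mechanosensor of touch receptors that is also known from mechanosensitive EC cells, was under 1 FPKM in all 16 libraries and did not reach the filter for the fit. Crypt EC had 0.289, 0.674, 0.245 and 0.207 FPKM, and crypt epi had 0.159, 0.169, 0.207 and 0.209. Villus EC had 0.618, 0.639, 0.617 and 0.474, and villus epi had 0.450, 0.627, 0.566 and 0.427. Values were higher in the villus than in the crypt for epi without overlap, and the groups overlapped in the other 3 comparisons tested. Means were in the order villus EC, villus epi, crypt EC and crypt epi.

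Exact two-sided permutation tests of 4 against 4 libraries, whose smallest possible p is 0.0286, were run for Piezo2 and adjusted over its 4 comparisons. The villus minus crypt difference in epi was 0.35 log2 units (exact p = 0.0286, adjusted p = 0.114). In EC it was 0.24 (exact p = 0.143, adjusted p = 0.19). EC minus epi was 0.18 in the crypt (exact p = 0.0857, adjusted p = 0.171) and 0.07 in the villus (exact p = 0.229, adjusted p = 0.229). None passed the threshold. After this adjustment a comparison that alone has the smallest possible p stands at 0.114, so full separation in a single comparison could not pass. With libraries scaled to the same total 3 of the 4 did, EC minus epi in the crypt (0.31) and villus (0.28) and the site difference in epi (0.25), each at an exact adjusted p = 0.0381, and with median-ratio scaling the villus value changed sign (−0.03).

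**Figure D3:**
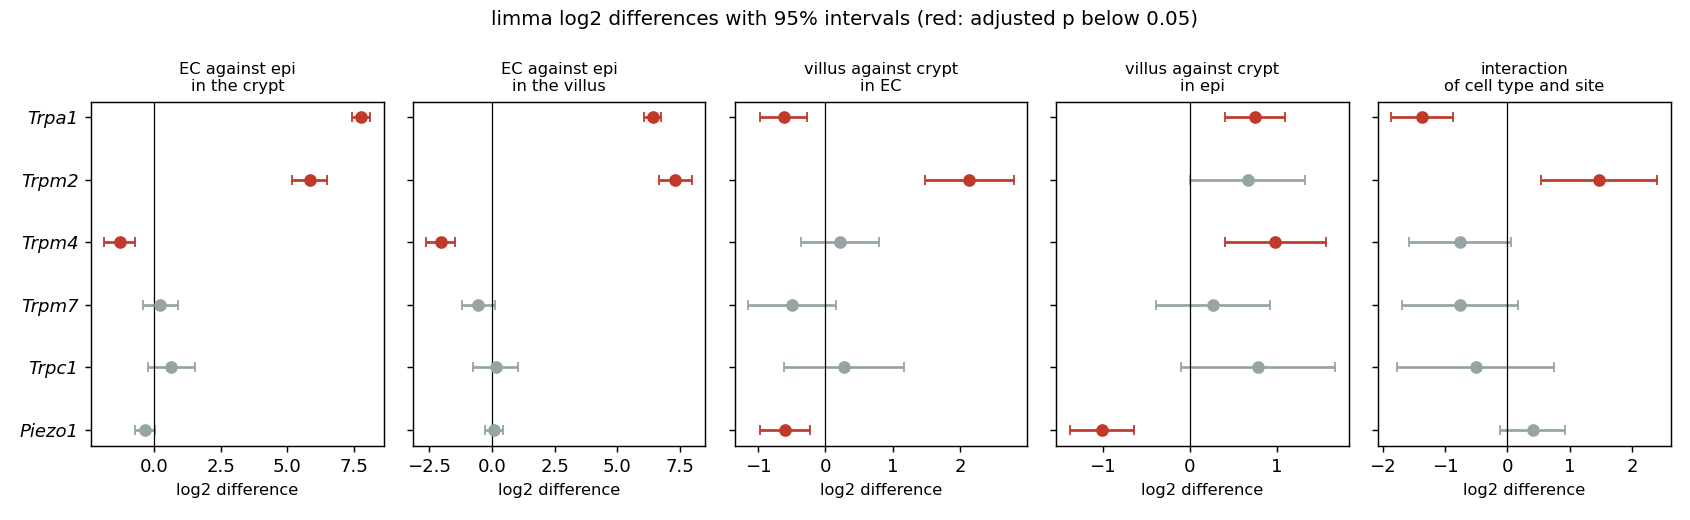
Limma log2 differences on the x axis for the 6 tested channel genes on the y axis, 1 panel per contrast, with 95% intervals as whiskers and red for adjusted p below 0.05. Trpa1, Trpm2 and Trpm4 are red in both contrasts of EC with epi, and Trpa1 and Trpm2 point in opposite directions in the EC site contrast and in the interaction.

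The number of channel genes called stood as follows among the 6 tested. In the crypt 3 differed between EC and epi, 2 higher and 1 lower, where 43.2% of the 14089 tested genes were called (23.2% higher and 20.0% lower). In the villus it was the same 3 genes and directions, where 62.2% of all genes were called (40.6% higher and 21.6% lower). Between sites within EC 3 were called, Trpm2 higher and Trpa1 and Piezo1 lower in the villus, against 26.5% of all genes (10.3% higher and 16.2% lower). Within epi 3 were called, Trpa1 and Trpm4 higher and Piezo1 lower, against 55.0% (19.6% higher and 35.4% lower). The interaction was called for Trpa1 and Trpm2, against 42.9% of all genes (26.9% positive and 16.0% negative). With 6 genes these shares were not tested against the background and are no result about the channels as a set.

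The groups of EC and epi did not overlap for 4 of the 6 genes in the crypt (59.6% of all tested genes) and for 3 in the villus (52.8%). Between sites the EC groups did not overlap for 5 (45.2%) and the epi groups for 3 (48.3%). The share of calls in the EC site contrast depended on 1 library, since 6565 genes were called without villus epi replicate 2 and 3736 with it. With equal totals the median of all genes moved by 0.45 log2 units in the crypt and 0.49 in the villus contrast of EC with epi, and by −0.18 and −0.21 in the site contrasts. Of all calls, 80.7% and 80.4% were then higher in EC, where the deposited values gave 53.6% and 65.3%. In the site contrasts 24.7% (EC) and 24.9% (epi) were then higher in the villus, against 38.9% and 35.6%. Median-ratio scaling moved the medians by −0.13 and −0.22 in the contrasts of EC with epi and by 0.13 in the epi site contrast. The calls of Trpa1, Trpm2 and Trpm4 between EC and epi held in all 27 alternatives run for each.

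Within the whole TRP family, 27 of 28 listed genes had a row and 15 were tested. In the crypt 7 were higher and 3 lower in EC (median 0.66 log2 units), where the median of all tested genes was 0.05, and in the villus 6 were higher and 4 lower (median 0.15), where it was 0.33. These medians and the shares of genes called higher and lower above are the background for each list that follows. Among those beyond the 5 TRP genes above, Trpc7 and Trpc4, subunits of receptor-operated channels, were the EC genes with the largest difference. Trpc7 was at 50.2 ± 5.5 FPKM in crypt EC and 0.159 in crypt epi, and its villus means were 8.31 ± 1.41 (EC) and 1.41 (epi) (5.46 and 2.25 log2 units). From crypt to villus it fell within EC by 2.47 (limma adjusted p = 7.186e-05). Trpc4 went the other way, from 19.4 ± 4.72 in crypt EC to 38.7 ± 4.57 in villus EC (0.98, limma adjusted p = 0.001766), with 0.118 and 0.299 in epi.

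Within EC, Trpc7 was thus higher in the crypt and Trpc4 in the villus. Higher in epi were the endolysosomal channel gene Mcoln2 at both sites (−2.21 and −3.40) and its relative Mcoln3 in the villus, with 1.58 FPKM in EC and 13.5 in epi (−2.50). In the crypt Mcoln3 was higher in EC, at 1.07 against 0.0879 (0.91). Pkd2, which encodes polycystin-2, was higher in EC by 1.27 and 1.44.

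Per length, the TRP family summed to 533 FPKM in EC and 159 in epi of the crypt, and to 708 and 295 in those of the villus. Trpa1 made up 43.7% of the crypt EC sum and 21.6% of the villus EC sum. Trpm2 made up 16.7% and 50.5%. In epi the largest member was Trpm4, with 36.3% in the crypt and 43.2% in the villus. Trpc1 held 0.154% of the crypt EC sum.

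**Figure D4:**
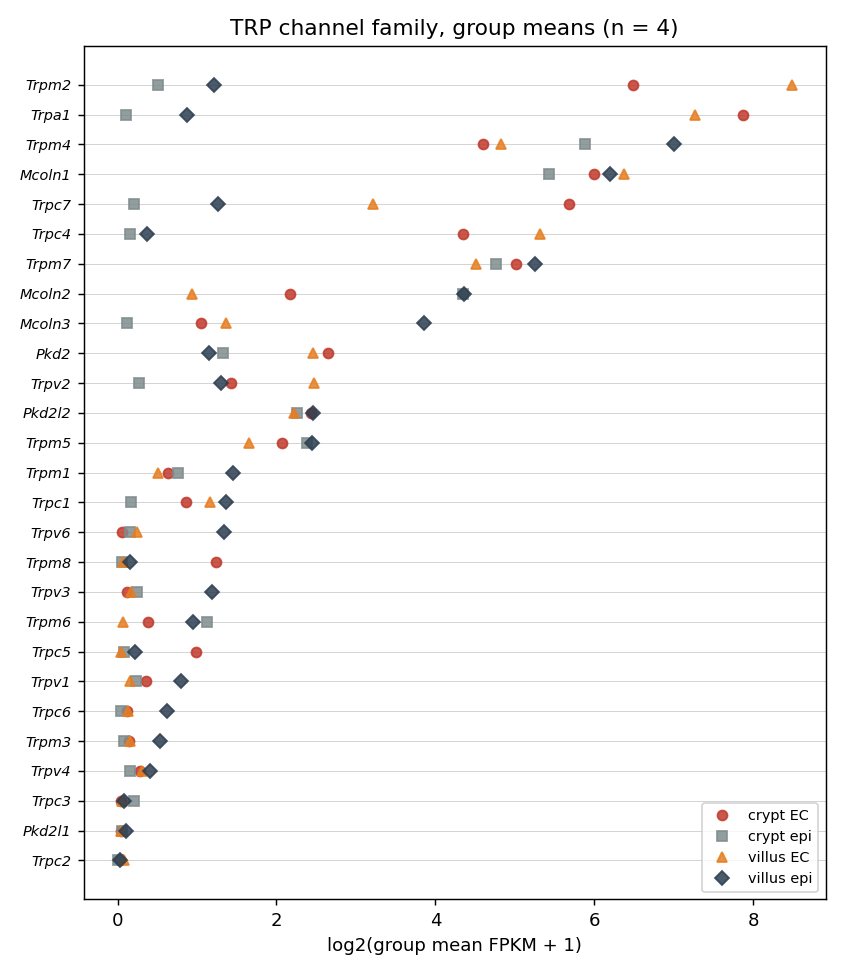
Group means (n = 4) of the 27 TRP family genes with a row, as log2(mean FPKM + 1) on the x axis, with genes on the y axis and 1 symbol per group. Trpm2, Trpa1, Trpc7 and Trpc4 show EC symbols far to the right of epi symbols, Trpm4, Mcoln2 and villus Mcoln3 the reverse, and Trpm7 symbols lie close together.

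Of the Piezo genes with other mechanosensitive channels and partners, 14 of 22 were tested. In the crypt 2 were higher and 3 lower in EC (median 0.11), and in the villus 5 were higher and 4 lower (median 0.24). Without villus epi replicate 2 the crypt count was 8 rather than 5. Epi had more Tmem120a, proposed to shape mechanical responses, at 165 against 23.8 FPKM in the crypt and 478 against 23.0 in the villus (−2.75 and −4.29). Stom, a membrane protein that modulates ion channels, was also lower in EC (−2.20 and −4.37), as was the K2P potassium channel gene Kcnk10 in the crypt (−1.76). Higher in EC were the stretch-gated channel genes Tmem63c in the crypt (1.66) and Tmem63a and Tmem63b in the villus (2.91 and 2.17, the latter at 61.0 against 14.7 FPKM). Tmem63b at 61.0 ± 3.2 in villus EC was thus far above both Piezo genes there.

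Trpm2 opens on ADP-ribose, and 14 of 16 listed genes of NAD and ADP-ribose metabolism were tested. In the crypt 3 were higher and 4 lower in EC (median −0.32), and in the villus 4 were higher and 6 lower (median −0.21). The crypt total of 7 was 12 without villus epi replicate 2 and 4 without crypt EC replicate 3. Parp1, which makes poly(ADP-ribose), had 378 ± 9.95 FPKM in crypt EC and 39.2 ± 2.7 in epi of that site (3.24), and 107 and 5.41 in the villus (4.26). The ADP-ribosyl cyclase genes were lower in EC: Bst1 by −1.42 in the crypt and −5.03 in the villus (7.23 against 269), and Cd38 by −1.81 in the crypt. The Cd38 call was lost without crypt EC replicate 2, 3 or 4 or crypt epi replicate 3 (limma adjusted p = 0.05117 to 0.06546). It was also lost with a pseudocount of 0.1 (limma adjusted p = 0.07768) and with equal totals (−1.30, limma adjusted p = 0.06354). Nudt9 and Nudt5, which encode ADP-ribose hydrolases, were lower in EC as well, Nudt9 by −0.92 in the crypt (−0.40 and not called with equal totals) and Nudt5 by −2.09 in the villus. Naprt, of NAD synthesis from nicotinic acid, was at 32.0 against 295 in the villus (−3.12).

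Store-operated calcium entry, with which Trpc1 has been linked, had all 10 listed genes tested. In the crypt 2 were higher and 2 lower in EC (median 0.19), and in the villus 3 were higher and 3 lower (median 0.19). Without villus epi replicate 2 the crypt count was 8. The store sensor gene Stim1 was higher in EC at both sites, at 66.1 against 17.7 FPKM in the crypt and 50.6 against 11.7 in the villus (1.85 and 2.04). The pore gene Orai2 had 51.5 ± 4.9 FPKM in EC and 1.80 in epi of the villus (4.27), Orai3 rose in EC by 0.82 and 1.41, and Orai1 was lower in villus EC by −0.99. Cracr2a, a calcium-sensing regulator of Orai channels, had 0.378 FPKM in EC and 13.2 in epi of the crypt (−3.32). The crypt call of Stimate (−0.63) was lost in 14 of 26 alternatives, that of Orai3 in the crypt with median-ratio scaling (0.67) and that of Orai1 with equal totals (−0.40).

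Magnesium transport, the setting of Trpm7, had all 13 listed genes tested. In the crypt 0 were higher and 5 lower in EC (median −0.39), with 0 higher at an unadjusted limma p below 0.05 too, and in the villus 1 was higher and 7 lower (median −0.81). Cnnm4, a basolateral magnesium transporter, was at 8.57 against 29.1 FPKM in the crypt and 4.16 against 60.0 in the villus (−1.65 and −3.30). Slc41a2 and Magt1 were lower in crypt EC by −1.26 and −1.04. Trpm6, the closest relative of Trpm7, was at 0.301 against 1.19 in the crypt (−0.75). Slc41a3 and Cnnm1 were lower in villus EC by −1.47 and −1.11, and the call of Cnnm2 there (−1.12) was lost in 18 of 26 alternatives.

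Phospholipase C and IP3 receptor genes, upstream of several TRP channels, had 16 of 18 tested. In the crypt 5 were higher and 6 lower in EC (median −0.02), and in the villus 4 were higher and 6 lower (median −0.29). Itpr3 was higher in EC, at 73.5 against 13.5 FPKM in the crypt and 129 against 5.81 in the villus (2.33 and 4.54). Plcb4 was higher in villus EC by 3.38. Lower in EC were Plcd1 (−2.74 and −3.65), Plcb3 and Plcb1 in the crypt (−2.12 and −2.11) and the Gq-class subunit gene Gna11 in the villus (−3.52). The shared label of the list therefore covered genes of both directions.

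Likeness of profiles was measured as the root mean square difference between gene-centred log2(FPKM + 1) values over the 16 libraries, which share their depth and sort, and is given as a description. For Trpa1 the 3 nearest genes were Tpbg (0.383 log2 units), Resp18 (0.412) and the EC transcription factor gene Lmx1a (0.455). Tpbg had the same order of EC groups, 453 FPKM in crypt EC and 253 in villus EC, whereas Resp18 and Lmx1a were higher in villus EC. Nearest to Trpm2 were the endocrine transcription factor gene Neurod1 (0.463, at 228 in crypt EC and 679 in villus EC), Cwh43 (0.478) and the exocytosis gene Snap25 (0.615), and all 3 were higher in villus EC. Trpm4 lay nearest to Xpnpep1 (0.252), AU040320 (0.253) and Relb (0.260), all highest in villus epi. Distances for the low or flat genes were smaller because their profiles vary less: Dpcd (0.165), Msh4 (0.171) and Cdc40 (0.192) for Trpm7, Spaca7b (0.224), Or52ad1 (0.244) and Clec4a2 (0.245) for Trpc1, and Gpn3 (0.195), Coa6 (0.205) and Cuta (0.210) for Piezo1.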

How the data were processed

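RNA from sorted cells was made into full-length cDNA and tagmented libraries without strand information, per the labels' protocols. The authors deposited 1 table of gene-level FPKM values. Per the submitters' processing notes, tools were kallisto, sleuth and bcl2fastq 2.20, and the genome build was mm10. The sources used here do not give the annotation release or how libraries were scaled. The deposited FPKM were put on a log2 scale after adding 1. Genes with at least 1 FPKM in at least 4 of 16 libraries were tested (14089, leaving out 5983), which kept 6 of the 7 channel genes.

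Group differences came from limma 3.58.1 (R 4.3.3, eBayes with a mean-variance trend), two-sided, in 1 fit of 4 group means with 12 residual degrees of freedom, on 5 contrasts. P-values were adjusted by Benjamini-Hochberg over all genes of a contrast, and the threshold was 0.05. Piezo2 was tested by exact permutation. The method was run on simulated data with known changes, in which each gene had the same spread in all groups. Such data cannot show how unequal spread between groups or a library standing apart affects the calls. Alternatives were pseudocounts of 0.1 and 5, a filter at 5 FPKM and none, 2 scalings, replicate blocks, library weights, fits of only the compared groups, and each library left out. Piezo2 without single libraries and the list counts were added after seeing the data.

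Positions come from GENCODE M21 and promoters from RefSeq. Relative depth of the libraries was read from steps of values below 0.1, with scaling by read totals alone assumed, and the FPKM give no counting intervals. The named genes are the 7 members, the 4 called genes of each list with the largest difference in each contrast of EC with epi, and the 3 nearest profiles per tested member. Genes named in the other observations and single marker genes fall outside this rule and were chosen after their values were seen. Members and lists were chosen with earlier results of these data known. Figures were drawn with matplotlib 3.10.9.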

Additional observations from a re-analysis of the deposited data

Results flagged for a closer look

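Of 28 groups of 4 libraries (7 genes in 4 groups), 4 had 1 library standing apart, its gap to the nearest other library over the group's range being above Dixon's 95% critical value. Chance flags about 1 in 20 such groups. Trpa1 in villus EC had replicate 4 high at 193 FPKM against 138 to 141 (ratio 0.9387). Trpm7 and Trpc1 in villus epi had replicate 2 high, at 78.3 against 20.9 to 28.2 (0.8732) and at 5.37 against 0.211 to 0.364 (0.9704). Piezo2 in villus EC had replicate 4 low, at 0.474 against 0.617 to 0.639 (0.8611).

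For 2 genes the difference between EC and epi itself differed between villus and crypt by the interaction test. For Trpa1 it was smaller in the villus (interaction −1.37 log2 units, limma adjusted p = 0.0002195), with every villus EC library below every crypt EC library. For Trpm2 it was larger in the villus (1.47, limma adjusted p = 0.01299), with every villus EC library above every crypt EC library.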

How the results depend on the processing

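Of 846 values of single channel genes under the alternatives, 800 kept their direction and, where it was judged, their side of the threshold. Of the rest, 10 lost a call, 22 gained one and 14 changed sign. Piezo2 values with single libraries left out are among the 846 and were judged by direction only. The calls of Trpa1, Trpm2 and Trpm4 between EC and epi were kept in the 27 alternatives run for each. Channel genes called were 3 within EC between sites, and 1 with a library-number replicate block and 5 with library weights. Within epi they were 3, and 1 with that block and 5 with a pseudocount of 0.1, and for the interaction 2, and 1 with a pseudocount of 0.1. Sign changes with no call were Trpm7 between villus EC and epi with equal totals (0.0777), and between sites in epi with equal totals (−0.0154), library weights (−0.21) and single libraries left out (−0.15 to 0.47). Trpc1 between villus EC and epi was −0.0147 with a pseudocount of 5 and −0.0725 to 0.73 with single libraries left out, and its interaction was 0.20 with library weights and −0.73 to 0.0647. Piezo1 between villus EC and epi was −0.13 with the library-number replicate block and −0.000842 to 0.21 with single libraries left out. Piezo2 between villus EC and epi was −0.0333 with median-ratio scaling, and with equal totals its differences of 0.31 and 0.28 between EC and epi and 0.25 between sites in epi passed the threshold, as did 0.35 in limma without a filter. The cause of these changes was not tested.

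Calls that were lost with the library-number block were Trpa1 between sites in EC (−0.56, limma adjusted p = 0.201) and in epi (0.67, limma adjusted p = 0.05584), Trpm4 in epi (0.95, limma adjusted p = 0.06394) and Piezo1 in EC (−0.64, limma adjusted p = 0.1169). Trpm4 in epi was also lost when only its 2 groups were fitted (0.98, limma adjusted p = 0.05456). A replicate block by title number kept 3, 3, 3, 3 and 2 channel genes called in the 5 contrasts. Deviations of same-numbered libraries from their group means correlated above 0.1 in 4 of 24 pairs by title number and in 1 of 10 by library number. Other differences between libraries enter these deviations, so they cannot show whether either number marks a shared mouse.

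List totals moved as well. In the crypt the mechanosensitive list had 5 genes called, 3 with the filter at 5 FPKM, 8 with library weights and 5 to 8 with single libraries left out. Store-operated entry had 4, and 8 with library weights or only 2 groups, and 3 to 8 with single libraries left out. NAD metabolism had 7, 14 with library weights, 12 with only 2 groups, and 4 to 12 with single libraries left out. Magnesium transport had 5 in the crypt (9 with library weights) and 8 in the villus (3 with the filter at 5 FPKM or the library-number block). Of all genes, 6088 were called between EC and epi in the crypt, and 9928 with library weights and 9204 with only 2 groups. Between sites in EC 3736 were called, and 1841 with the library-number block, 7255 with library weights, 6670 with only 2 groups and 6565 without villus epi replicate 2. By the steps of low values, villus epi had the lowest relative depth (0.362 to 0.664 of crypt EC replicate 1).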

Other observations

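Low TRP genes outside the channels described showed little in most libraries. Trpm8, the cold receptor gene, had a mean of 1.37 FPKM in crypt EC, and Trpc5 had 0.978 there. Trpv1, the capsaicin receptor gene, was at 0.285 in crypt EC. Trpv2 was higher in EC at both sites, at 1.70 against 0.205 in the crypt and 4.57 against 1.47 in the villus (1.14 and 1.39 log2 units, limma adjusted p = 0.008135 and 0.001264).

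Among channel genes tied to mechanical signals, Asic2, an acid-sensing channel subunit, had 1.49 FPKM in EC and 0.0198 in epi of the crypt (1.26, limma adjusted p = 7.539e-06), and the K2P channel gene Kcnk2 had 5.11 in EC and 0.426 in epi of the villus (2.12, limma adjusted p = 1.177e-07). These genes of both paragraphs were picked after their values were seen.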
